A study of Mus musculus with 12 samples.

Results

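The pluripotency and primed-state gene program was followed through 37 genes, taken by name from the 57010 genes of the count table. They comprised 2 core factors (Pou5f1 and Nanog), 10 naive-state factors, 4 Dppa genes, 2 surface proteins, 5 RNA-binding and let-7 pathway proteins, 10 chromatin and zinc-finger regulators and 4 other genes enriched in stem cells. NE-4C cells are a mouse neural progenitor line derived from E9 embryonic brain, and all 12 libraries came from these cells. WT NO and KO NO are WT cells and Faf2 knockout cells that received no retinoic acid (RA). WT RA and KO RA are the same cells after 24 hours in 1 µM all-trans RA and then basal medium, collected on day 3 after induction. The NO cells were taken without perturbation, so the RA comparisons combine the agent with the time since induction. Each group held 3 libraries from 3 independent passages. The KO cells carry a CRISPR/Cas9 deletion of Faf2 exon 4, grew from picked colonies and are described as 1 line, so the p-values measure the spread between passages of 1 KO line and 1 WT line.

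Pluripotent cells of the early mouse embryo are held in that state by a network of transcription factors around Pou5f1 (Oct4), Sox2 and Nanog. The naive state of the blastocyst adds factors such as Esrrb, Klf2, Klf4 and Tfcp2l1, while primed cells of the later epiblast keep Pou5f1 and lose most of that second layer. Lin28a and Lin28b, RNA-binding proteins of early embryonic cells and neural progenitors, block the maturation of let-7 miRNAs, which accumulate as cells differentiate. RA is widely used to start differentiation in such cells.

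The library totals ran from 17370069 to 30738717 counts, and 3 counts in a library, taken here as the floor of detection, corresponded to 0.0838 to 0.297 CPM (counts scaled to library size). Levels are CPM scaled with TMM factors, computed from deposited counts that were scaled from TPM to each library's total. The smallest nonzero values fell with transcript length, with a 5th percentile of 1.62 for genes of 900 to 1100 bases, 0.736 for 1900 to 2100 and 0.365 for 3800 to 4200 (median of the 12 libraries), so CPM of different genes can be set side by side per length, while a count here is not a whole read. Faf2 was at 50.01, 38.8 and 36.0 CPM in WT NO, at 21.0, 21.7 and 25.4 CPM in KO NO, at 35.1, 37.9 and 49.1 CPM in WT RA, and at 36.1, 34.3 and 18.7 CPM in KO RA. The KO NO libraries were all below the WT NO libraries, but the difference was not called with all libraries (log2 fold change −0.87 ± 0.27 SE, edgeR adjusted p = 0.179) and was called without KO RA replicate 3 (edgeR adjusted p = 0.0111). After RA the genotypes overlapped in Faf2 and the difference was not called (−0.45, edgeR adjusted p = 0.395, and −0.21, edgeR adjusted p = 0.489 without that library), and KO RA was above KO NO without it (0.62, edgeR adjusted p = 0.0382). A gene total does not show whether a transcript holds exon 4. KO RA replicate 3 stood apart from the other 11 libraries: its TMM factor was 0.394 against 0.872 to 1.28, its 100 most abundant genes took 62.5% of its counts against 37.1% to 50.4%, mitochondrial genes took 23.5% against 9.10% to 17.7%, and the 37 members together took 0.126% against 0.335% to 0.522%. Results are therefore given with all 12 libraries and without KO RA replicate 3. The 10 neural progenitor markers looked at (among them Nes, Sox2 and Pax6) all passed the filter and summed to 510 to 538 CPM in WT NO.

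Of the 37 members, 35 passed the filter on low counts and were tested. Zfp42, a naive-state marker also called Rex1, had at most 2 counts in any library, and Zscan4c, a gene of the 2-cell embryo, had 0 counts in all libraries, which allows up to 0.0838 to 0.297 CPM in a library. The level of the remaining members ran over several orders of magnitude. In WT NO, 8 of the 37 had a mean above the 90th percentile of the 16502 tested genes, 11 lay between that and the median of 7.498 CPM, 12 lay between the median and the 10th percentile, and 6 were below the 10th percentile. Pou5f1 had the highest mean of the members, 1852 ± 613 CPM (SD, n = 3), above 99.6% of tested genes. Next came Tdgf1, a Nodal co-receptor, at 509 ± 35.3 CPM, L1td1 at 424 ± 157 CPM, Utf1 at 388 ± 186 CPM, Pim2 at 267 ± 76.8 CPM and Lin28a at 253 ± 44.1 CPM (SD, n = 3 each). Each of these lay within the larger SD of its neighbour in the order, apart from the step from Pou5f1 to Tdgf1. Nanog was at 52.4 ± 7.76 CPM, while the naive-state factors Esrrb, Tfcp2l1, Tbx3, Prdm14 and Nr5a2 each had a mean of at most 0.841 CPM.

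**Figure D1:**
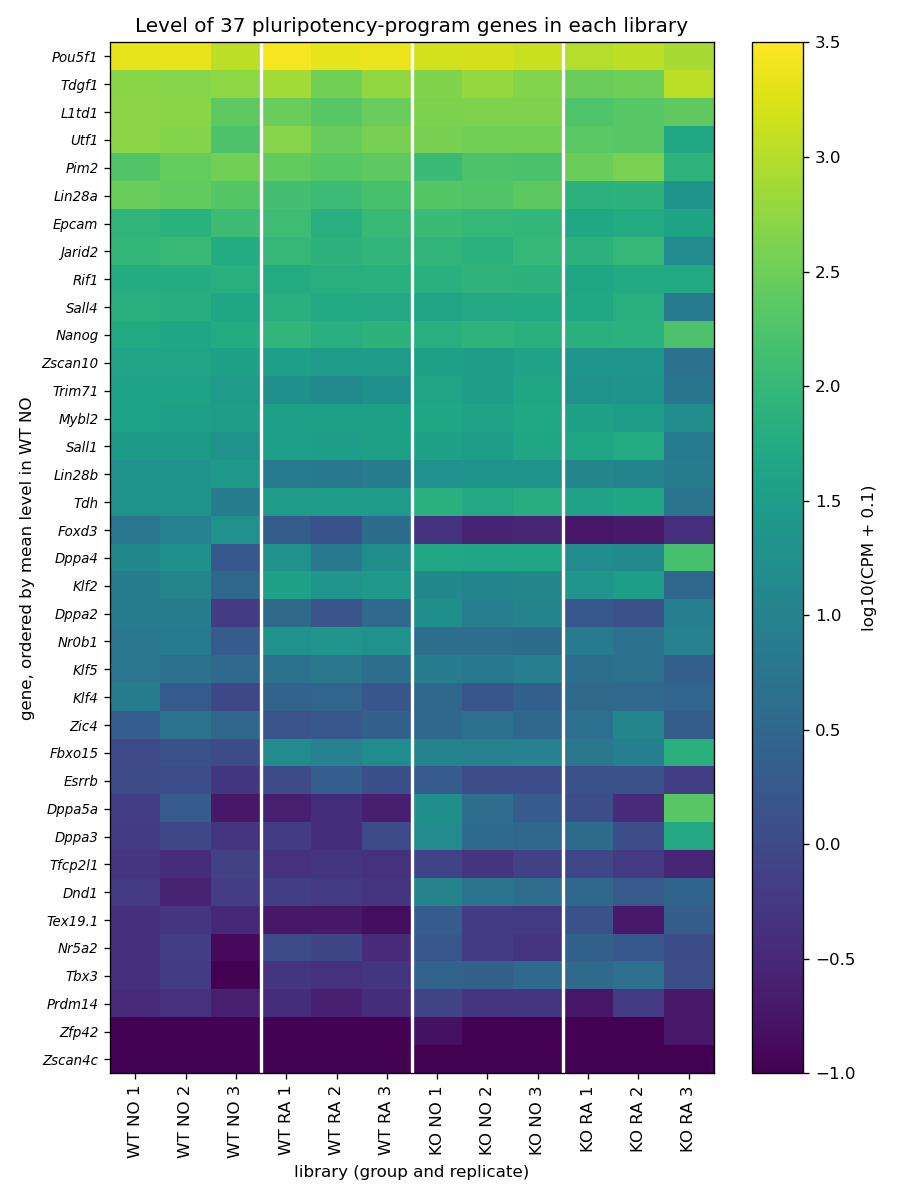
Level of the 37 members (rows, ordered by their mean in WT NO) in each of the 12 libraries (columns, in groups of 3), coloured by log10(CPM + 0.1). Pou5f1 in the top row runs from 800 to 2775 CPM, the naive-state factors lie near the bottom, and KO RA replicate 3 differs from its group, with Dppa5a at 216 CPM against 1.13 and 0.238 CPM.

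Tests used edgeR's quasi-likelihood fit over all tested genes with Benjamini-Hochberg adjustment, and a gene was called at an adjusted p under 0.05. In KO NO against WT NO, 1 of 35 members was higher (Dnd1) and 1 lower (Foxd3), where 0.788% of all tested genes were higher and 0.351% lower. In WT RA against WT NO, 1 member was lower (Lin28b) and 0 were higher, beside 0.0848% and 0.321% of all genes. At an unadjusted p under 0.05 there were 3 higher and 3 lower members, beside 1115 and 956 of all 16502 genes. DESeq2 called 2 higher and 2 lower, and limma-voom 5 and 6. In KO RA against KO NO, 2 members were lower (Lin28a and Lin28b), beside 1.59% of all genes, and 0 were higher, beside 3.89%. There, 0 members were higher at an unadjusted p under 0.05, beside 2608 of all 16502 genes, 0 by DESeq2 and 4 by limma-voom. In KO RA against WT RA, Dnd1 was higher and Foxd3 lower, beside 0.885% and 0.358% of all genes. At an unadjusted p under 0.05, 7 members were higher and 6 lower there, beside 1799 and 1100 of all 16502 genes. The shares of all genes called by DESeq2 and limma-voom are not given here, so their member counts are not read as results about the members. A share of 1 member in 35 is 2.86%, so the edgeR counts of called members are too small to be read against the background.

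Without KO RA replicate 3, 17327 genes were tested and the spread shared by all groups was smaller. In KO NO against WT NO, 5 members were then higher (Tbx3, Dppa3, Dnd1, Tdh and Fbxo15; 14.3% of 35) and 2 lower (Foxd3 and Pim2; 5.71%), beside 4.43% and 4.35% of all genes. After RA in WT cells, 4 were higher (Nanog, Klf2, Nr0b1 and Fbxo15) and 4 lower (Lin28a, Lin28b, Trim71 and Foxd3), 11.4% each, beside 5.65% and 5.13%. After RA in KO cells, 8 were lower (Lin28a, Lin28b, Trim71, L1td1, Epcam, Zscan10, Rif1 and Dppa2; 22.9%) and 1 higher (Pim2; 2.86%), beside 7.54% and 8.48%. In KO RA against WT RA, 4 were higher (Lin28b, Tbx3, Dnd1 and Zic4; 11.4%) and 6 lower (Pou5f1, Nr0b1, Lin28a, Foxd3, Zscan10 and Fbxo15; 17.1%), beside 4.42% and 5.44%. The median log2 fold change of the members was 0.33 for KO NO against WT NO, 0.02 for WT RA against WT NO, −0.62 for KO RA against KO NO and −0.00 for KO RA against WT RA, while that of all tested genes lay between −0.02 and 0.01 in each. With all 12 libraries the 4 medians were 0.32, 0.01, −0.41 and −0.03, and those of all genes −0.02, −0.01, 0.11 and 0.09. The first comparison shares WT NO with the second and KO NO with the third, and the fourth shares its libraries with both RA comparisons.

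**Figure D2:**
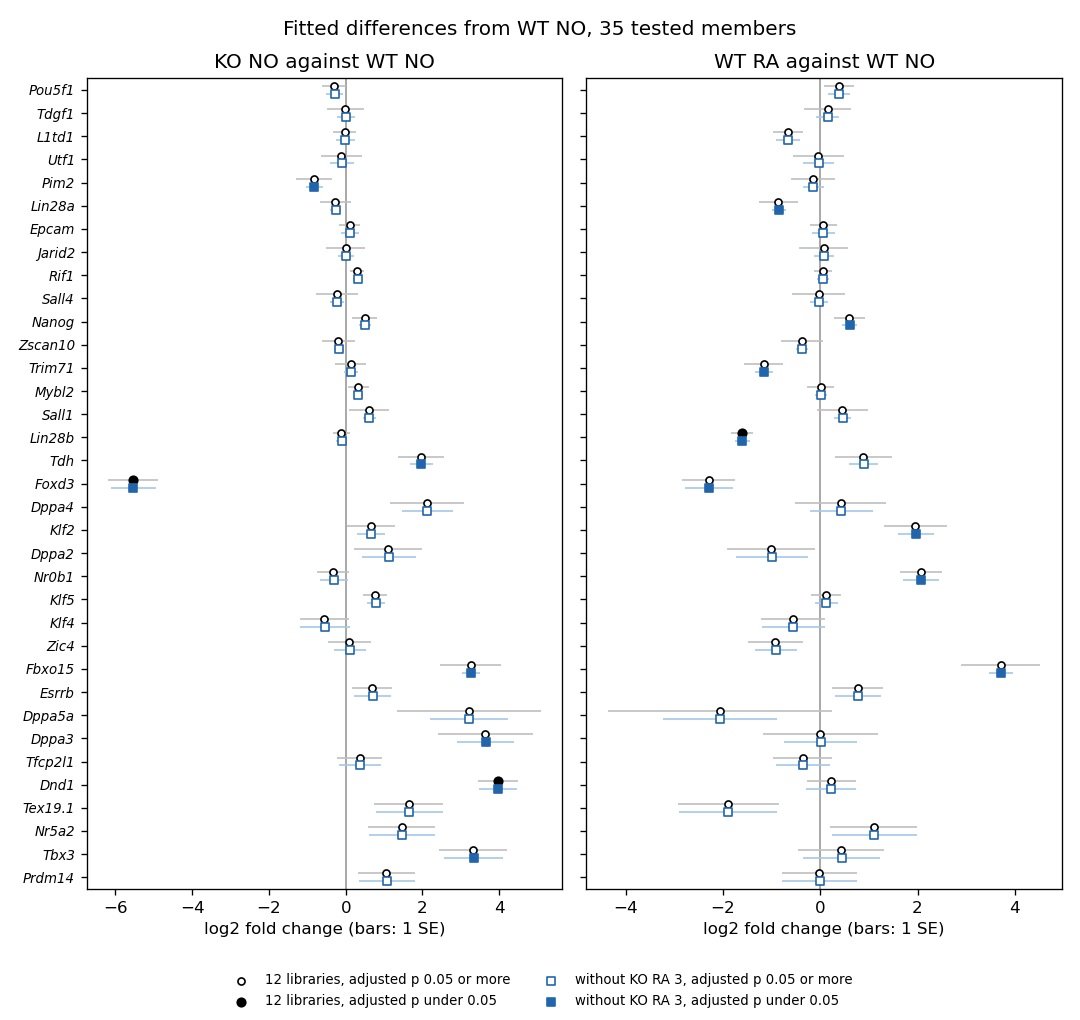
Fitted log2 fold change (points) with 1 SE (bars) of each of the 35 tested members in KO NO against WT NO (left) and WT RA against WT NO (right), with all 12 libraries (circles) and without KO RA replicate 3 (squares), filled where the adjusted p was under 0.05. The estimates hardly move when that library is left out, most of their bars are shorter, and Foxd3 at −5.54 and Dnd1 at 3.97 lie farthest out on the left.

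Pou5f1, the central factor of the network, had the highest mean of the members in each of the 4 groups. It had 2128, 2278 and 1149 CPM in WT NO, 2775, 2118 and 2352 CPM in WT RA, 1574, 1609 and 1349.6 CPM in KO NO, and 989, 1167 and 800 CPM in KO RA. WT NO replicate 3 was low within its group, WT NO and WT RA overlapped, and all KO RA libraries lay below all KO NO and all WT RA libraries. In WT cells the RA difference was 0.38 ± 0.31 (log2, SE, edgeR adjusted p = 0.700), so no loss of Pou5f1 transcript was detected there by day 3. The KO RA against WT RA difference was −1.29 ± 0.32 with all libraries (edgeR adjusted p = 0.0742) and −1.17 ± 0.26 without KO RA replicate 3 (edgeR adjusted p = 0.0208), and KO RA against KO NO was −0.62 ± 0.31 (edgeR adjusted p = 0.239). Pou5f1 lies on chromosome 17, where the median log2 fold change of 794 tested genes in KO NO against WT NO was −0.47, while the medians of the other chromosomes lay between −0.36 (chromosome 13, which also carries Jarid2) and 0.17 (chromosome 7). The untreated differences of the 3 members on chromosome 17 were −0.29 ± 0.31 for Pou5f1, 0.10 ± 0.28 for Epcam and −0.19 ± 0.43 for Zscan10. The part of this shift in the members' values was not tested.

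Nanog, the second core factor, was at 55.5, 43.6 and 58.2 CPM in WT NO, 91.2, 65.7 and 81.6 CPM in WT RA, 66.8, 84.2 and 70.5 CPM in KO NO, and 71.8, 75.1 and 173 CPM in KO RA. All WT RA libraries were above all WT NO libraries, by 0.60 ± 0.33 on the log2 scale (edgeR adjusted p = 0.505), which was called without KO RA replicate 3 (0.60 ± 0.15, edgeR adjusted p = 0.0344). The untreated genotype difference of 0.49 ± 0.33 was not called in either fit (edgeR adjusted p = 0.641, and 0.0704 without KO RA replicate 3).

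Among the 10 naive-state factors 9 were tested, and with all libraries edgeR called none in any of the 4 comparisons. On the same libraries DESeq2 called Tbx3, Klf2, Nr0b1 and Klf5 in at least 1 of them, and limma-voom called these and Nr5a2. At an unadjusted p under 0.05, Klf5 and Tbx3 were higher in KO NO against WT NO, and Klf2 and Nr0b1 in WT RA against WT NO. Of all 16502 tested genes, 959 and 1115 were higher at that threshold in these comparisons. Nr0b1 (Dax1), a nuclear receptor that binds Pou5f1 in embryonic stem cells, was at 6.16, 6.84 and 1.92 CPM in WT NO and at 19.9, 22.1 and 20.5 CPM in WT RA. The 3 WT RA libraries lay above all others of the study, since KO NO held 4.19, 3.97 and 3.77 CPM and KO RA 6.73, 4.26 and 9.91 CPM. Its RA difference in WT cells was 2.07 ± 0.43 (edgeR adjusted p = 0.0739, and 0.00924 without KO RA replicate 3). KO RA was below WT RA by −1.59 ± 0.43 on the log2 scale (edgeR adjusted p = 0.1001, and 0.0212 without KO RA replicate 3).

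Klf2, a Krüppel-like factor of the naive network, also lay higher in all WT RA libraries, at 37.3, 22.3 and 25.6 CPM, than in WT NO, at 7.85, 11.02 and 3.14 CPM. The difference was 1.95 ± 0.65 (log2, edgeR adjusted p = 0.239, and 0.0118 without KO RA replicate 3). In KO cells it was at 12.4, 10.8 and 11.5 CPM without RA and at 21.8, 31.5 and 3.27 CPM with RA, so that KO RA replicate 3 alone was below the KO NO range. Tbx3, a T-box factor, was at 0.317, 0.517 and 0 CPM in WT NO and 2.58, 2.34 and 3.38 CPM in KO NO, and it stayed apart between the genotypes after RA, with 0.385, 0.339 and 0.382 CPM in WT RA and 3.48, 4.36 and 1.09 CPM in KO RA. Its difference was 3.31 ± 0.89 without RA (edgeR adjusted p = 0.121, and 0.0254 without KO RA replicate 3) and 3.01 ± 0.88 with RA (edgeR adjusted p = 0.125, and 0.0275 without that library). Klf5 was called in neither edgeR fit, with 0.77 ± 0.31 in KO NO against WT NO (edgeR adjusted p = 0.333) and −1.06 ± 0.31 in KO RA against KO NO (edgeR adjusted p = 0.0755), while limma-voom called both (adjusted p = 0.0242 and 0.0114). Esrrb, Klf4, Tfcp2l1, Prdm14 and Nr5a2 were called in neither edgeR fit, with group means from 0.222 CPM (Prdm14 in KO RA) to 3.42 CPM (Klf4 in WT NO). The summed level of the 10 genes was 10.5 to 29.7 CPM in WT NO, 54.0 to 67.4 CPM in WT RA, 27.5 to 35.4 CPM in KO NO and 21.4 to 51.8 CPM in KO RA.

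The Dppa genes encode small nuclear and cytoplasmic proteins of pluripotent and germ cells. Dppa2 and Dppa4 bind DNA as a pair, and Dppa3 (Stella) protects DNA methylation in the zygote. In KO NO against WT NO the log2 differences were 1.11 (Dppa2), 3.64 (Dppa3), 2.11 (Dppa4) and 3.215 (Dppa5a), and edgeR called none with all libraries. Dppa3 had an edgeR adjusted p of 0.232 with all libraries and 0.0152 without KO RA replicate 3, and the others were called in neither edgeR fit. Dppa3 was at 0.528, 0.813 and 0.397 CPM in WT NO and at 14.9, 3.58 and 3.15 CPM in KO NO. Dppa4 was at 12.6, 18.1 and 1.62 CPM in WT NO and at 50.6, 43.3 and 46.0 CPM in KO NO. WT NO replicate 3 was low for Dppa4 (53 counts against 358 and 491) and Dppa2 (17 against 226 and 218), and KO NO replicate 1 was high for Dppa3 and for Dppa5a (584 counts against 135 and 68).

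After RA, the Dppa genes depended on KO RA replicate 3. Dppa5a had 2176 counts there against 25 and 7 in the other KO RA libraries, Dppa4 had 1548 against 343 and 423, and Dppa3 had 515 against 83 and 32. The summed level of the 4 genes was 22.0, 16.97 and 429 CPM in the 3 KO RA libraries, 99.98, 59.2 and 61.1 CPM in KO NO, and 2.62 to 28.9 CPM over the 6 WT libraries. With all libraries KO RA against KO NO gave 3.23 ± 1.78 for Dppa5a, 0.38 ± 0.93 for Dppa4 and 1.35 ± 1.09 for Dppa3, while without that library it gave −3.53 ± 1.23, −1.65 ± 0.75 and −1.60 ± 0.77 (log2, SE). None of these was called by edgeR. Dppa2 was the member of this group that was called, at −3.05 ± 0.92 without KO RA replicate 3 (edgeR adjusted p = 0.0467) against −1.67 ± 0.92 with it (edgeR adjusted p = 0.273). Dppa3 has a transcribed processed pseudogene with 98.2% identity over 53.8% of its transcript, so part of its counts may have been shared. Dppa5a has near copies in the lncRNA genes Gm70238 and Gm70039, with 98.3% identity over 80.8% of its transcript. The count table holds neither lncRNA, and their part in the Dppa5a values was not tested.

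**Figure D3:**
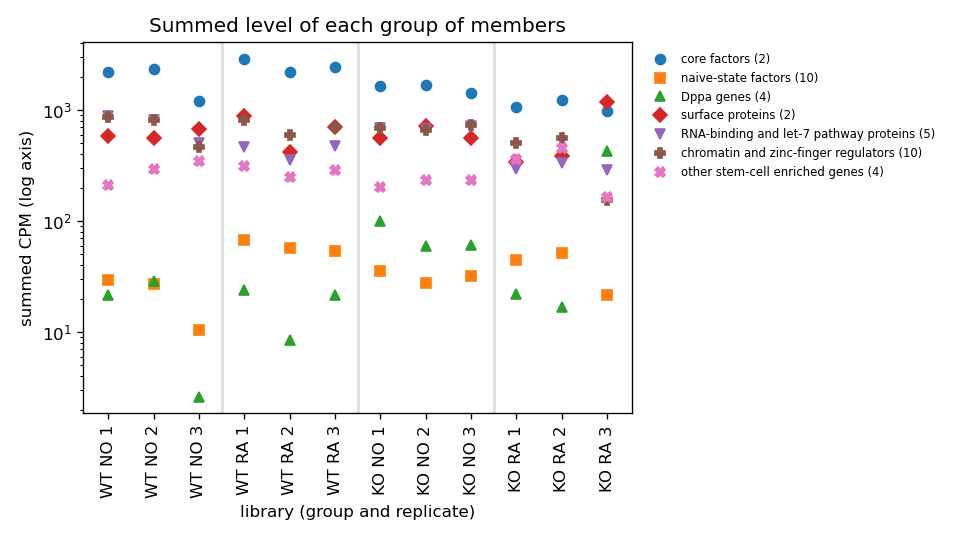
Summed CPM (log axis) of the members of each of the 7 roles (number of genes in brackets) in each library. The Dppa genes lie at 59.2 to 99.98 CPM in KO NO and at 2.62 to 28.9 CPM in the WT libraries, and KO RA replicate 3 departs from its group upwards for the Dppa genes and surface proteins and downwards for the chromatin and zinc-finger regulators.

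Both surface proteins were abundant. Tdgf1 (Cripto) was at 492, 486 and 550 CPM in WT NO, 752, 355 and 591 CPM in WT RA, 442, 622 and 459 CPM in KO NO, and 292, 327 and 1139.9 CPM in KO RA. The KO RA value again turned on replicate 3, and KO RA against KO NO was 0.21 ± 0.48 with it and −0.72 ± 0.27 without it (log2, edgeR adjusted p = 0.813 and 0.0933). Epcam, an epithelial adhesion protein of epiblast cells, was at 91.4, 74.2 and 123 CPM in WT NO, 125, 66.1 and 109.5 CPM in WT RA, 115, 97.8 and 97.2 CPM in KO NO, and 48.0, 58.6 and 41.3 CPM in KO RA. All KO RA libraries were below those of every other group. The difference from KO NO was −1.07 ± 0.28 on the log2 scale with all libraries, just outside the threshold (edgeR adjusted p = 0.0525), and −0.97 ± 0.27 without KO RA replicate 3 (edgeR adjusted p = 0.0372).

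Lin28a and Lin28b were the members called lower after RA with all libraries. Their transcripts, with that of Trim71, a ubiquitin ligase and RNA-binding protein, are known targets of let-7, and let-7 family members share the seed at bases 2 to 8. The mature let-7a, with its seed in capitals, and the matches to that seed (CTACCTC in DNA letters, in capitals) in the 3' UTR of the canonical transcripts of Lin28a, Lin28b and Trim71 are shown because these 3 genes were lower after RA in both genotypes without KO RA replicate 3.
let-7a-5p: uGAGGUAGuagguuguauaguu
Lin28a site 1: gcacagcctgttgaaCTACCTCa
Lin28a site 2: gagatcgccacaaacCTACCTCa
Lin28b site 1: acccgggcgggaagtCTACCTCa
Lin28b site 2: tatacttgttagtaaCTACCTCt
Lin28b site 3: gtttacagcacatggCTACCTCc
Lin28b site 4: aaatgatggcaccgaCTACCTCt
Trim71 site 1: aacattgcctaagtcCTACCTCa
Trim71 site 2: agtgataatttctatCTACCTCa
Trim71 site 3: tttagtatggattttCTACCTCa
Trim71 site 4: ttggcaaaaagttgtCTACCTCa
Lin28a (GRCm39, chromosome 4, 133730641 to 133746173, reverse strand) held 2 matches in a 3' UTR of 2775 bases, Lin28b (chromosome 10, 45252646 to 45362557, reverse strand) 4 in 4515 bases, and Trim71 (chromosome 9, 114336201 to 114393437, reverse strand) 4 in 5512 bases. Sall4 and Esrrb held 1 each, and the other 31 members with an annotated 3' UTR held none. At least 1 match was thus present in 5 of 36 members (13.9%), near the 11.6% of 13176 tested genes. At least 3 matches were present in 2 of 36, Lin28b and Trim71. The share was 0.273% of all those genes and 0.725% of the 4688 with a 3' UTR of at least 2000 bases. Both genes were on the list as let-7 pathway genes and known targets, so their number cannot be read against these shares. A match is a description of these letters, let-7 itself was not measured in these polyA libraries, and this search was added after the values of the genes were seen.

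Lin28b was at 19.2, 19.2 and 26.1 CPM in WT NO, 6.73, 6.60 and 7.84 CPM in WT RA, 18.7, 21.0 and 19.96 CPM in KO NO, and 11.8, 10.5 and 7.73 CPM in KO RA. Untreated WT and KO libraries overlapped, and after RA every library lay below every untreated one. The fall was −1.61 ± 0.22 in WT cells (log2, SE, edgeR adjusted p = 0.0220), a 3.05-fold lower level, and −0.99 ± 0.22 in KO cells (edgeR adjusted p = 0.0280). Without KO RA replicate 3 these were −1.60 ± 0.16 and −0.85 ± 0.17 (edgeR adjusted p = 0.000781 and 0.00974), and KO RA then lay above WT RA by 0.65 ± 0.17 (edgeR adjusted p = 0.0392). The difference between the 2 RA responses was 0.62 ± 0.31 and was not called (edgeR adjusted p = 0.614, and 0.117 without that library). The call in WT cells was lost without any 1 of the WT RA libraries or of WT NO replicates 1 and 2 (edgeR adjusted p from 0.0775 to 0.113). It was also lost with a replicate block (edgeR adjusted p = 0.0784), and held in 15 of 21 alternatives.

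Lin28a was at 291, 265 and 205 CPM in WT NO, 144, 120 and 154 CPM in WT RA, 208, 192 and 232 CPM in KO NO, and 77.6, 81.0 and 21.3 CPM in KO RA. The RA groups lay below the untreated ones without overlap, and KO RA lay below WT RA. In KO cells the fall was −1.81 ± 0.41 with all libraries (log2, SE, edgeR adjusted p = 0.0305) and −1.42 ± 0.17 without KO RA replicate 3 (edgeR adjusted p = 0.000805). In WT cells the difference was −0.86 ± 0.40 (edgeR adjusted p = 0.412), which was called without that library (−0.86 ± 0.15, edgeR adjusted p = 0.00751). KO RA against WT RA gave −1.22 ± 0.41 (edgeR adjusted p = 0.175) and −0.82 ± 0.17 without KO RA replicate 3 (edgeR adjusted p = 0.0150). After RA, then, Lin28a was lower and Lin28b higher in KO than in WT cells in the fit without that library. Their interaction terms were not called (−0.95 and 0.62 with all libraries, −0.56 and 0.76 without it). Without 1 library at a time, the call in KO cells was lost for Lin28a without any KO NO library, any WT RA library or WT NO replicate 2 (edgeR adjusted p from 0.0503 to 0.0915), and for Lin28b without any KO NO library or WT RA replicate 1 (edgeR adjusted p from 0.0512 to 0.112). Both were also lost in edgeR with a replicate block (edgeR adjusted p = 0.0541 and 0.0706) and with only the groups compared (0.193 and 0.162). That of Lin28b was lost with no filter beyond 1 count too (edgeR adjusted p = 0.0586). The calls in KO cells held in 12 (Lin28a) and 14 (Lin28b) of 21 alternatives.

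Trim71 was at 40.8, 41.3 and 29.8 CPM in WT NO, 18.3, 13.6 and 18.01 CPM in WT RA, 42.9, 33.5 and 45.8 CPM in KO NO, and 19.9, 21.3 and 5.55 CPM in KO RA. Its RA difference was −1.16 ± 0.40 in WT cells and −1.38 ± 0.40 in KO cells (edgeR adjusted p = 0.253 and 0.0722), and both were called without KO RA replicate 3 (−1.16 ± 0.18 and −0.996 ± 0.20, edgeR adjusted p = 0.00514 and 0.00883). L1td1, an RNA-binding protein derived from a LINE-1 element, was at 532, 496 and 245 CPM in WT NO, 295, 214 and 296 CPM in WT RA, 410, 421 and 419 CPM in KO NO, and 183, 218 and 252 CPM in KO RA. All KO RA libraries were below all KO NO libraries, by −0.94 ± 0.30 (edgeR adjusted p = 0.0981) and by −1.06 ± 0.28 without KO RA replicate 3 (edgeR adjusted p = 0.0289), while the WT groups overlapped.

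The promoter of Lin28b, in the RefSeq table of GRCm38.p6 (chr10:45470152-45470451, reverse strand, 250 bases before to 50 after the gene's start), is shown for its E-box, in capitals, as Lin28b was called lower in both RA comparisons.
Lin28b promoter: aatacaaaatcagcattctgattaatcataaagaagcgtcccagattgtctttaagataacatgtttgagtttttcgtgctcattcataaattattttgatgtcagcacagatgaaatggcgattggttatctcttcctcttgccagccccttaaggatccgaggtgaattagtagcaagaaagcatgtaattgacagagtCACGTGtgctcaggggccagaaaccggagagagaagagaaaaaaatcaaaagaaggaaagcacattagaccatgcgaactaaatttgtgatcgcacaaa
The table held promoters of 25 members. Searched on both strands, CACGTG (E-box) was found in 4 of them (Epcam, Foxd3, Klf4 and Lin28b) and in 7.15% of all 32851 promoters. The octamer ATGCAAAT was found in Pim2 and Zfp42 (1.74% of all promoters), the Sox motif CATTGT in Esrrb, Lin28a, Nanog and Pou5f1 (12.6%), the half-site AGGTCA in Nanog, Nr0b1, Nr5a2, Pou5f1 and Zscan4c (16.3%), GGGTGTGG (Klf) in Zfp42 (3.56%), GGGCGG (GC box) in 13 members (35.7%), and TCAAGGTCA, which holds the half-site, in none (0.423%). A member with several listed promoters counted if any of them held the motif, while the percentages are of single promoters. Member counts and percentages are therefore not on the same footing. None of these matches was tied to a measurement of binding.

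Dnd1, an RNA-binding protein needed for the survival of primordial germ cells, was the only member called higher in KO NO with all libraries. It was at 0.493, 0.185 and 0.549 CPM in WT NO (14, 5 and 18 counts), 0.577, 0.485 and 0.382 CPM in WT RA, 10.1, 5.39 and 4.02 CPM in KO NO (346, 182 and 144 counts), and 3.02, 1.74 and 2.68 CPM in KO RA. No KO library overlapped a WT library. The difference was 3.97 ± 0.52 without RA (log2, SE, edgeR adjusted p = 0.00527), a 15.7-fold higher level, and 2.35 ± 0.50 with RA (edgeR adjusted p = 0.0493). Without KO RA replicate 3 these were 3.98 ± 0.50 and 2.28 ± 0.52 (edgeR adjusted p = 0.00174 and 0.0227). The untreated call held under all 20 alternatives that tested Dnd1, with log2 values from 3.49 to 4.25. A minimum of 10 counts in every library removed it from the test. The call after RA held in 8 of 20 and was lost without any of the WT RA or KO NO libraries, WT NO replicate 1 or KO RA replicate 1 (edgeR adjusted p from 0.0679 to 0.206). Dnd1 shares 138 exonic bases on the opposite strand with Wdr55, whose difference in KO NO was −0.08 (edgeR adjusted p = 0.949).

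**Figure D4:**
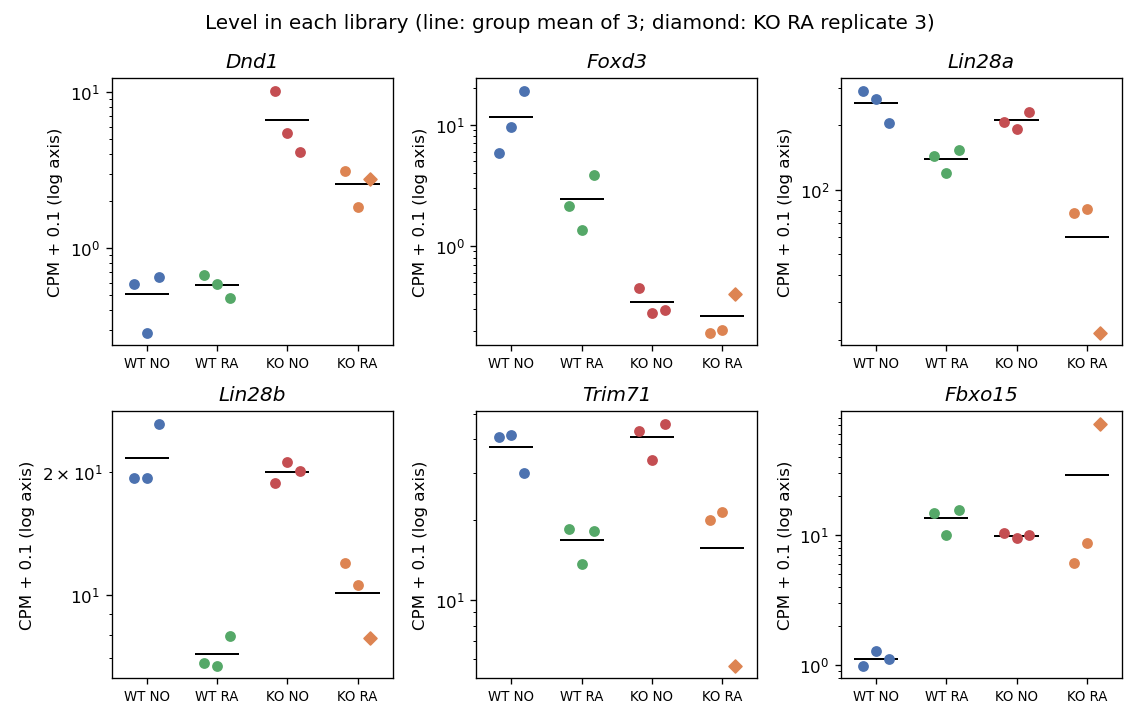
Level (CPM + 0.1, log axis) of Dnd1, Foxd3, Lin28a, Lin28b, Trim71 and Fbxo15 in each library (points, diamond for KO RA replicate 3), with the mean of the 3 libraries of a group as a line. Dnd1 and Foxd3 separate WT from KO, Lin28a, Lin28b and Trim71 separate the untreated from the RA libraries, and Fbxo15 is at 0.880 to 1.18 CPM in WT NO and at 6.004 CPM or more in all other libraries.

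Foxd3, a forkhead factor of pluripotent cells and of the neural crest, was called lower in KO cells with and without RA. It was at 5.74, 9.4998 and 19.0 CPM in WT NO (163, 257 and 624 counts), 2.02, 1.26 and 3.73 CPM in WT RA (42, 26 and 78 counts), and 0.352, 0.178 and 0.195 CPM in KO NO (12, 6 and 7 counts). KO RA held 2, 3 and 3 counts, at or under the floor in every library. All KO libraries lay below all WT libraries. The untreated difference was −5.54 ± 0.65 (log2, SE, edgeR adjusted p = 0.00338), and was called under all 20 alternatives run, with log2 values from −5.91 to −4.94. As sums over the group, KO NO had 25 counts and WT NO 1044, a 49.1-fold lower level with a 95% interval of 33.1 to 76.2 that treats the scaled counts as reads and covers counting error only. After RA the sums were 8 in KO and 146 in WT, a ratio of 0.0555 with a 95% counting interval of 0.0235 to 0.112, and the fit called the difference (edgeR adjusted p = 0.0221, and 0.00804 without KO RA replicate 3). That call was lost without WT RA replicate 1 or 3, KO NO replicate 3 or KO RA replicate 1 or 2 (edgeR adjusted p from 0.0506 to 0.0946). Within WT cells the RA difference of Foxd3 was −2.29 ± 0.55 (edgeR adjusted p = 0.107), which was called without KO RA replicate 3 (edgeR adjusted p = 0.0178).

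Foxd3 is a single-exon gene (GRCm39, chromosome 4, 99544536 to 99546859, forward strand). It shares 163 exonic bases with Foxd3os and 92 with Gm12688, both on the opposite strand, and whether the counting used strand is not stated. Gm12688 had a log2 difference of −1.71 in KO NO (edgeR adjusted p = 0.393). The Foxd3 promoter (RefSeq table, GRCm38.p6, chr4:99656049-99656348, forward strand) is shown as that of the member with the largest called difference, with its E-box in capitals.
Foxd3 promoter: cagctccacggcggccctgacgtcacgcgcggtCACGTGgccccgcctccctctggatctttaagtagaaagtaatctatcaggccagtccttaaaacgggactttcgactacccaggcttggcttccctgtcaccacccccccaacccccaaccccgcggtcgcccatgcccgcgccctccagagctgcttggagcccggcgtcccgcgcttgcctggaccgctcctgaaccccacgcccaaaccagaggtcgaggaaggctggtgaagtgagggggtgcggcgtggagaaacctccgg

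The other chromatin and zinc-finger regulators changed less. Utf1, a chromatin-bound factor of embryonic stem cells, was at 525, 462 and 176 CPM in WT NO, 475, 285 and 374 CPM in WT RA, 370, 348 and 358 CPM in KO NO, and 221, 213 and 47.7 CPM in KO RA. All KO RA libraries were below those of KO NO and WT RA, but edgeR called neither difference (−1.16 ± 0.53 and −1.23 ± 0.54, edgeR adjusted p = 0.204 and 0.268). Limma-voom called both (limma-voom adjusted p = 0.0274 and 0.0197). Jarid2, a component of Polycomb repressive complex 2, was at 95.7, 107 and 59.7 CPM in WT NO, 101, 81.6 and 93.0 CPM in WT RA, 88.6, 74.5 and 98.9 CPM in KO NO, and 77.3, 97.3 and 14.97 CPM in KO RA. Its groups overlapped throughout and edgeR called no difference.

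Sall4, a zinc-finger factor that binds the Pou5f1 network, was at 68.6, 63.0 and 45.7 CPM in WT NO, 65.3, 56.7 and 52.0 CPM in WT RA, 42.5, 51.7 and 57.2 CPM in KO NO, and 48.5, 67.8 and 7.43 CPM in KO RA, again with no difference called by edgeR. Rif1, which acts in telomere and replication timing control, was at 61.8, 61.4 and 68.9 CPM in WT NO, 58.8, 69.2 and 71.0 CPM in WT RA, 71.8, 84.0 and 81.1 CPM in KO NO, and 46.4, 56.2 and 53.2 CPM in KO RA. The KO RA libraries lay below those of all other groups, and the difference from KO NO was −0.60 ± 0.18 (edgeR adjusted p = 0.0781), called without KO RA replicate 3 at −0.63 ± 0.14 (edgeR adjusted p = 0.0118). Zscan10 fell in KO cells with RA by −0.67 ± 0.14 without KO RA replicate 3 (edgeR adjusted p = 0.00879), while all libraries gave −1.09 ± 0.43 (edgeR adjusted p = 0.154). Zic4 had 2.16 ± 0.47 in KO RA against WT RA without that library (edgeR adjusted p = 0.0189, and 0.165 with it). Sall1 and Mybl2 were called in neither edgeR fit.

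Of the 4 other genes enriched in stem cells, Fbxo15 had the clearest pattern. This F-box gene, a target of Pou5f1 and Sox2 in embryonic stem cells, was at 0.880, 1.18 and 1.007 CPM in WT NO, 14.8, 9.99 and 15.6 CPM in WT RA, 10.3, 9.33 and 9.88 CPM in KO NO, and 6.004, 8.55 and 72.1 CPM in KO RA. The WT NO libraries lay below all others. With all libraries the differences from WT NO were 3.71 ± 0.81 in WT RA and 3.26 ± 0.80 in KO NO (log2, SE, edgeR adjusted p = 0.0839 and 0.0896), and without KO RA replicate 3 they were 3.72 ± 0.24 and 3.27 ± 0.23 (edgeR adjusted p = 0.000115 and 7.84e-05). KO RA against KO NO changed sign with that library, from 1.54 ± 0.73 with it to −0.44 ± 0.23 without it, and was not called in either fit (edgeR adjusted p = 0.212 and 0.230).

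Pim2, a serine/threonine kinase, was at 188, 270 and 342 CPM in WT NO, 266, 211 and 246 CPM in WT RA, 117, 173 and 161 CPM in KO NO, and 315, 399 and 83.9 CPM in KO RA. KO NO lay below WT NO (−0.83 ± 0.46, edgeR adjusted p = 0.538), and without KO RA replicate 3 this was called (−0.82 ± 0.22, edgeR adjusted p = 0.0450), as was KO RA against KO NO at 1.23 ± 0.24 (edgeR adjusted p = 0.00754). Tdh, which encodes the threonine dehydrogenase that mouse embryonic stem cells rely on, was at 20.5, 20.2 and 7.57 CPM in WT NO, 30.05, 29.5 and 29.6 CPM in WT RA, 70.9, 52.7 and 63.3 CPM in KO NO, and 38.5, 43.3 and 5.35 CPM in KO RA. KO NO lay above all other libraries, by 1.95 ± 0.60 over WT NO (edgeR adjusted p = 0.181, and 0.00472 without KO RA replicate 3). Tdh has a transcribed processed pseudogene with 97.1% identity over 59.5% of its transcript, so part of its counts may have been shared. Tex19.1, a germ cell gene that restrains retrotransposons, had at most 2 counts in each WT RA library and 67, 17 and 17 counts in KO NO, and was called in neither edgeR fit, while DESeq2 on all libraries called it higher in KO RA than in WT RA (adjusted p = 0.0190).

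**Figure D5:**
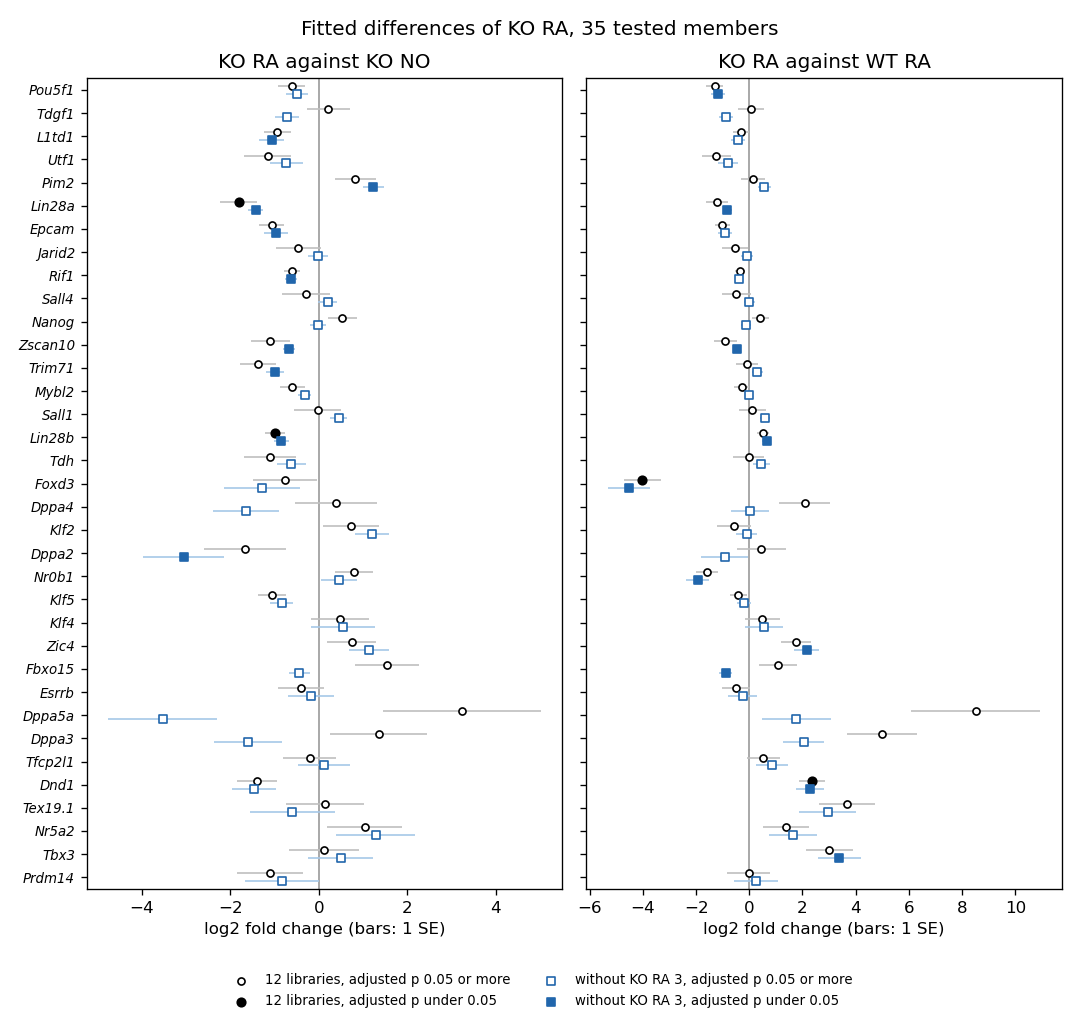
Fitted log2 fold change (points) with 1 SE (bars) of each of the 35 tested members in KO RA against KO NO (left) and KO RA against WT RA (right), with all 12 libraries (circles) and without KO RA replicate 3 (squares), filled where the adjusted p was under 0.05. Unlike the comparisons that leave out KO RA, here the estimates themselves shift, most for Dppa5a, from 3.23 to −3.53 on the left.

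The difference between the RA responses of KO and WT cells was tested as an interaction. With all 12 libraries edgeR called 0 members higher and 0 lower, beside 0% and 0% of all 16502 genes. At an unadjusted p under 0.05 there were 0 members higher and 6 lower (Pou5f1, Klf5, Epcam, Dnd1, Rif1 and Tdh), beside 913 and 510 of all 16502 genes. DESeq2 called 0 and 0, and limma-voom 0 and 5. The shares of all genes in the fits by these methods are not given here, so their member counts are not read as results. Without KO RA replicate 3 edgeR called 0 higher and 1 lower, Fbxo15 at −4.16 ± 0.34 (edgeR adjusted p = 0.00212), beside 0.802% and 0.537% of all genes. At an unadjusted p under 0.05 that fit had 3 members higher and 11 lower, beside 1612 and 1666 of all 17327 genes. The median of the members was −0.62 beside −0.00 for all genes, and DESeq2 on the same 11 libraries called 2 higher and 3 lower. In that fit Fbxo15 rose with RA in WT cells, where it started at 1.02 ± 0.152 CPM (SD, n = 3), and in KO cells it started at 9.82 ± 0.464 CPM (SD, n = 3). In bulk RNA, fewer cells that express a gene and less RNA per cell cannot be told apart in any of these comparisons.

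Lists of related genes outside the members gave the setting, and their counts stand beside the shares of all genes given above (for all 12 libraries 0.788% higher and 0.351% lower in KO NO against WT NO, 0.321% and 0.0848% in WT RA against WT NO, 3.89% and 1.59% in KO RA against KO NO). At an unadjusted p under 0.05, 959 of all 16502 genes were higher and 1052 lower in KO NO against WT NO. The numbers were 1115 and 956 in WT RA against WT NO, and 2608 and 1555 in KO RA against KO NO. Of 22 formative and primed markers, 21 were tested. In KO NO against WT NO their median was −0.19, and edgeR called 1 higher and 0 lower with all libraries (1 and 4 at an unadjusted p under 0.05), and 1 higher and 3 lower without KO RA replicate 3. The higher gene was Dnmt3l, a cofactor of de novo DNA methylation, with 26, 28 and 26 counts in WT NO and 927, 575 and 688 counts in KO NO (log2 difference 4.53 ± 0.61, edgeR adjusted p = 0.00669). In KO RA against KO NO 3 of the 21 were lower and 0 higher (8 lower and 1 higher at an unadjusted p under 0.05), with a median of −0.70. Without KO RA replicate 3 there were 5 lower and 3 higher. Their summed level was 1239 to 1427 CPM in WT NO, 969 to 1239 CPM in WT RA, 1078 to 1184 CPM in KO NO and 409 to 954 CPM in KO RA. Of 22 other naive and LIF-pathway genes 19 were tested, and with all libraries edgeR called 0 in KO NO against WT NO (at an unadjusted p under 0.05, 2 higher and 2 lower) and 0 in WT RA against WT NO (5 and 3), and without KO RA replicate 3 it called 2 higher and 0 lower, and 5 higher and 2 lower.

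Of 16 germ cell markers, 10 were tested, and 4 were higher in KO NO with all libraries (Stag3, Rbm46, Dmrt1 and Rec8, median over the 10 of 2.28) and 6 without KO RA replicate 3. Stag3, a meiotic cohesin subunit, was at 0.141, 0.407 and 0.305 CPM in WT NO and at 22.5, 25.3 and 27.1 CPM in KO NO, a difference of 6.44 ± 0.50 (edgeR adjusted p = 0.000255). The 16 germ cell markers summed to 12.2 to 19.4 CPM in WT NO, 31.2 to 34.7 CPM in WT RA, 87.7 to 105 CPM in KO NO and 58.2 to 93.1 CPM in KO RA, and their part in the values of Dnd1, Dppa3 and Tex19.1 was not tested. None of the 12 genes of the 2-cell embryo that the table holds passed the filter, and their sum was at most 0.580 CPM in any library.

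Among differentiation markers, edgeR called few in WT cells with all libraries. Of 8 tested neural crest markers, 2 were higher in WT RA than in WT NO (Sox9 and Tfap2b; 4 without KO RA replicate 3) and 5 in KO RA than in KO NO (6 without it). Of 10 tested RA targets, 2 were higher in WT cells with RA (Cyp26a1 and Hoxb2; 5 without that library), and in KO cells 6 were higher and 1 lower (7 and 1). Of 10 neural progenitor markers, 0 were called in WT RA against WT NO (4 higher at an unadjusted p under 0.05, and 3 called without KO RA replicate 3), and 5 were higher in KO RA than in KO NO (6 higher and 1 lower without it). Their summed level was 574 to 770 CPM in WT RA and 843 to 985 CPM in KO RA. Of 9 tested neuron markers, 0 were called in WT RA against WT NO (at an unadjusted p under 0.05, 3 higher and 1 lower, and 3 and 1 called without that library), and 3 were higher in KO RA than in KO NO (4 without it). Of 7 tested endoderm and mesoderm markers, 0 were called in WT RA against WT NO (2 higher at an unadjusted p under 0.05) and 1 was higher in KO RA than in KO NO. Pax6, which directs neural progenitor fate, was lower in KO NO (−2.50 ± 0.45, edgeR adjusted p = 0.0264), as was Gata4 of the endoderm and mesoderm list (−2.21 ± 0.29, edgeR adjusted p = 0.00531). In the let-7 pathway list, 13 genes outside the members were tested and all 12 libraries gave no call, with 1 lower at an unadjusted p under 0.05 in WT RA against WT NO. Without KO RA replicate 3, Igf2bp1, an RNA-binding protein and let-7 target, was lower after RA in WT cells (−1.19, edgeR adjusted p = 0.00136) and in KO cells (−0.68, edgeR adjusted p = 0.0124), and 3 of the 13 (Tut4, Hmga2 and Igf2bp2) were higher in KO RA than in WT RA.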

How the data were processed

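PolyA RNA-seq libraries were made from NE-4C cells of 2 genotypes with and without RA, and samples were grouped by the deposited labels. The authors aligned and quantified reads with the nf-core/rnaseq workflow (STAR and Salmon, GRCm39) and deposited estimated counts per gene, which are TPM scaled to each library's total, so 1 read is worth less in a longer transcript. These estimated counts were rounded here and tested with edgeR 4.0.16 (R 4.3.3): filterByExpr over the 4 groups, TMM factors, a robust quasi-likelihood fit to all 12 libraries with group as the only term, and Benjamini-Hochberg adjustment over all 16502 tested genes. Alternatives were DESeq2 1.42.0 and limma-voom (limma 3.58.1), other filters and size factors, a replicate block, only the groups compared, and leaving out each library. Both DESeq2 fits on fewer libraries were added once results were known. The members and lists were chosen with earlier results of these data known. Members called in a comparison with all libraries, or among the 10 highest in WT NO, are given in every library. Other members with values, called without KO RA replicate 3 or not, and the let-7 site search, were chosen after their values were seen. Promoters and miRNAs came from RefSeq tables (GRCm38.p6), 3' UTRs from GENCODE M39 (GRCm39). Scripts were tested on simulated data. Ratios of summed counts carry 95% intervals that treat scaled counts as reads, for counting error only.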

Additional observations from a re-analysis of the deposited data

How the results depend on the processing

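Values are counts of called members among those tested, in the order higher then lower, for 5 comparisons in turn: the untreated genotypes, RA in WT cells, RA in KO cells, the genotypes after RA, and the interaction. With all libraries edgeR gave 1 and 1, 0 and 1, 0 and 2, 1 and 1, and 0 and 0. DESeq2 on 12 libraries gave 4 and 1, 2 and 2, 0 and 6, 5 and 5, and 0 and 0, and without KO RA replicate 3 it gave 10 and 2, 5 and 6, 2 and 12, 5 and 9, and 2 and 3. Limma-voom with quality weights gave 9 and 2, 5 and 6, 4 and 14, 3 and 9, and 0 and 5. Only the groups compared gave 4 and 1, 3 and 3, 0 and 0, and 0 and 0 in edgeR, and 7 and 2, 4 and 4, 0 and 4, and 3 and 3 in DESeq2. A minimum of 10 counts in every library, which removed Dnd1 and Foxd3 from the test, gave 0 and 0, 0 and 1, 0 and 2, 0 and 0, and 0 and 0. No filter beyond 1 count gave 1 and 1, 0 and 1, 0 and 1, 0 and 1, and 0 and 0. Leaving out 1 library at a time gave 1 to 5 and 1 to 2, 0 to 4 and 0 to 4, 0 to 1 and 0 to 8, 0 to 4 and 0 to 6, and 0 to 0 and 0 to 1, and the highest of each that varied came without KO RA replicate 3. DESeq2 size factors in edgeR changed no count. The share of all genes called moved between fits too. With all libraries edgeR called 0.788% of genes higher and 0.351% lower between the untreated genotypes. Without KO RA replicate 3 it called 4.43% and 4.35%. Shares of all genes in the DESeq2 and limma-voom fits are not given here. Differences between the member counts of these fits are therefore not read as results about the members. The cause of these differences was not tested.

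The fit with the replicate block gave 1 and 1, 0 and 0, 0 and 0, 0 and 1, and 0 and 0. Whether same-numbered libraries of different groups shared a passage or day is not stated. Their deviations correlated from −0.26 to 0.0716, 0 of 12 over 0.1, and 3 of 12 libraries were closest to their own number. With 3 libraries a group, this cannot show that they had nothing in common. Values with the opposite sign to the 12-library edgeR fit and an adjusted p under 0.05 were, for KO RA against KO NO, Dppa4 in limma-voom (−1.60) and Dppa5a (−3.51) and Tdgf1 (−0.72) in DESeq2 without KO RA replicate 3. For KO RA against WT RA they were Tdgf1 in limma-voom (−0.89) and in DESeq2 without that library (−0.88), and Fbxo15 in limma-voom (−0.89), in DESeq2 without that library (−0.90) and in edgeR without it (−0.89), where leaving out 1 library at a time gave −0.89 to 1.67.

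With 3 passages of 1 KO line a group, the tests speak of these lines, and the wide spread of KO RA replicate 3 enters every test that shares its estimate. Members at a few counts, such as Foxd3 in KO cells, Prdm14 and Tex19.1, rest on few reads. Prdm14 was not called under any setting, and the untreated call of Foxd3 held under all 20 alternatives that tested it. The calls of Foxd3 and Tex19.1 in KO RA against WT RA depended on the method.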
